A study of Homo sapiens with 4 samples.

Results

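The cyclin-dependent kinase (CDK) inhibitor genes were followed in AGS and MKN1 gastric cancer cells after knockdown of the homeobox factor HOXB9. The members are the 8 genes CDKN1A, CDKN1B and CDKN1C of the CIP/KIP family, CDKN2A, CDKN2B, CDKN2C and CDKN2D of the INK4 family, and CDKN3. They were chosen by name, and each had a single row among the 57815 rows of the expression table. Both are established human lines, whose cells received a scrambled siRNA (siScramble) or an siRNA against HOXB9 (siHOXB9) with Lipofectamine 2000, which is a transient transfection. For each line and siRNA 1 library of poly-A selected RNA was sequenced, 4 in all, and the labels call the siScramble cells WT and the siHOXB9 cells HOXB9 knockdown. The labels give no time after transfection and no siRNA sequence, so effects of the siRNA on other transcripts cannot be told apart from those of HOXB9.

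CDKs drive the cell cycle once they bind a cyclin. INK4 proteins bind CDK4 and CDK6 and keep cyclin D off, which holds the retinoblastoma protein RB1 in its active form and blocks entry into S phase. CIP/KIP proteins bind whole cyclin-CDK complexes, above all those of CDK2, and at low levels also help cyclin D to assemble with its kinases. CDKN3 differs from both families: it encodes a phosphatase that removes an activating phosphate from CDK2, and in dividing cells its transcript is high around mitosis. In gastric and other carcinomas the INK4 genes are often silenced or lost, and much of the control of the CIP/KIP proteins lies in protein degradation, which RNA does not show.

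Depth estimated from low FPKM values (fragments per kilobase of transcript and per unit of depth) was 10680000 to 13050000 fragments per library. HOXB9 itself stood at 16.4 FPKM and, after knockdown, 4.44 FPKM in AGS, and at 1.14 and 0.218 FPKM in MKN1, which is 27.0% and 19.1% of control. By the size rule described below HOXB9 was called lower in AGS (change -1.68) and not in MKN1 (-0.81), where its level was already low with siScramble. Of 7 epithelial markers, the keratin transcripts KRT8 and KRT18 were at 654 to 1880 FPKM in the 4 libraries. In AGS, EPCAM, KRT19, CLDN4 and ELF3 stood at 207 to 1001 FPKM, and CDH1 at 3.28 or less. In MKN1, CLDN4 and ELF3 reached 54.4 and 32.6 FPKM, both with siHOXB9, but EPCAM, KRT19 and CDH1 stood at 2.70 FPKM or less. Of 5 leukocyte markers, 4 stayed at 0.467 FPKM or less in every library, and the fifth, LYZ, which gastric epithelium also makes, was at 2163 to 2197 FPKM in AGS. Of 5 fibroblast markers COL1A1 reached 43.8 FPKM, COL1A2 was listed at 0 in all libraries, and their sum was 16.1 and 30.7 FPKM in AGS and 41.6 and 52.4 FPKM in MKN1, siScramble first. Of 3 endothelial markers the highest value was 1.95 FPKM.

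The 2 lines carried different sets of CDK inhibitor transcripts. In AGS the CIP/KIP genes made up 88.3% of the summed CIP/KIP and INK4 FPKM with siScramble and 85.5% with siHOXB9. In MKN1 the INK4 genes made up 82.9% and 78.6% in the same order, and 93.5% and 93.4% of this INK4 sum was CDKN2A. With CDKN2A left out, INK4 shares were 11.6% and 14.0% in AGS and 23.9% and 19.5% in MKN1. FPKM is scaled to transcript length, so these levels can be compared between genes.

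CDKN2A encodes p16INK4a and, from another first exon and reading frame, ARF, which restrains the ubiquitin ligase MDM2. The table has 1 value for the gene and does not separate these products. CDKN2A was at 0.237 FPKM in AGS siScramble, 1.67 in AGS siHOXB9, 607 in MKN1 siScramble and 755 in MKN1 siHOXB9. Both MKN1 libraries were thus far above both AGS libraries, and CDKN2A lay at percentile 98.7 and 98.9 of expressed genes in MKN1. The gene (ENSG00000147889.17) spans bases 21967753 to 21995301 of chromosome 9 (GRCh38, reverse strand) and has 14 annotated transcripts. Its first exons overlap the antisense transcript CDKN2B-AS1 (0.203, 0.458, 1.21 and 0.839 FPKM in the same library order), from which an unstranded library cannot separate it. The AGS siScramble value corresponds to an estimated 1 to 3 fragments, depending on the transcript length assumed. The ratio of MKN1 to AGS with siScramble, 2564, therefore has a 95% counting interval of 483 to 106436 at the shorter length. With siHOXB9 the ratio was 451, with an interval of 222 to 1141.

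CDKN1C (ENSG00000129757.13, chromosome 11, 2883213 to 2885773, reverse strand) encodes p57KIP2, an imprinted inhibitor active in development. It was at 9.77 FPKM in AGS siScramble, 7.85 in AGS siHOXB9, 75.4 in MKN1 siScramble and 107 in MKN1 siHOXB9. CDKN2C (ENSG00000123080.10, chromosome 1, 50960745 to 50974633, forward strand) encodes p18INK4c, and was at 7.999, 4.07, 32.6 and 36.8 FPKM in the same order. For both genes both MKN1 libraries were higher than both AGS libraries. By the limma rule below, 16.2% of all genes were higher in MKN1 and 20.9% lower, so such differences were common. CDKN1C was 7.71 times higher in MKN1 with siScramble and 13.6 times with siHOXB9, and CDKN2C 4.08 and 9.05 times.

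CDKN1A (ENSG00000124762.13, chromosome 6, 36676460 to 36687339, forward strand) encodes p21, an inhibitor induced by DNA damage, which also binds the replication clamp PCNA. An exon of the antisense transcript DINOL overlaps it, and reads of the pair could not be told apart without strand. It was at 165 FPKM in AGS siScramble, 178 in AGS siHOXB9, 35.7 in MKN1 siScramble and 74.9 in MKN1 siHOXB9. CDKN1B (ENSG00000111276.10, chromosome 12, 12715058 to 12722371, forward strand) encodes p27, whose protein is held in check mainly by the ubiquitin ligase subunit SKP2, and was at 55.3, 60.3, 22.5 and 38.4 FPKM. Both were higher in AGS than in MKN1 under either siRNA, beside 20.9% of all genes lower in MKN1 by the limma rule below. CDKN3 (ENSG00000100526.19, chromosome 14, 54396849 to 54420218, forward strand) was at 159, 88.3, 42.0 and 33.8 FPKM, again higher in both AGS libraries. CDKN2B (ENSG00000147883.10, chromosome 9, 22002903 to 22009363, reverse strand) encodes p15INK4b, known as a TGF-beta response gene, and was at 14.9, 33.0, 7.21 and 14.0 FPKM, where AGS siScramble and MKN1 siHOXB9 were close. CDKN2D (ENSG00000129355.6, chromosome 19, 10566462 to 10569059, reverse strand), which encodes p19INK4d, was low throughout at 7.31, 3.17, 2.22 and 2.52 FPKM.

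**Figure D1:**
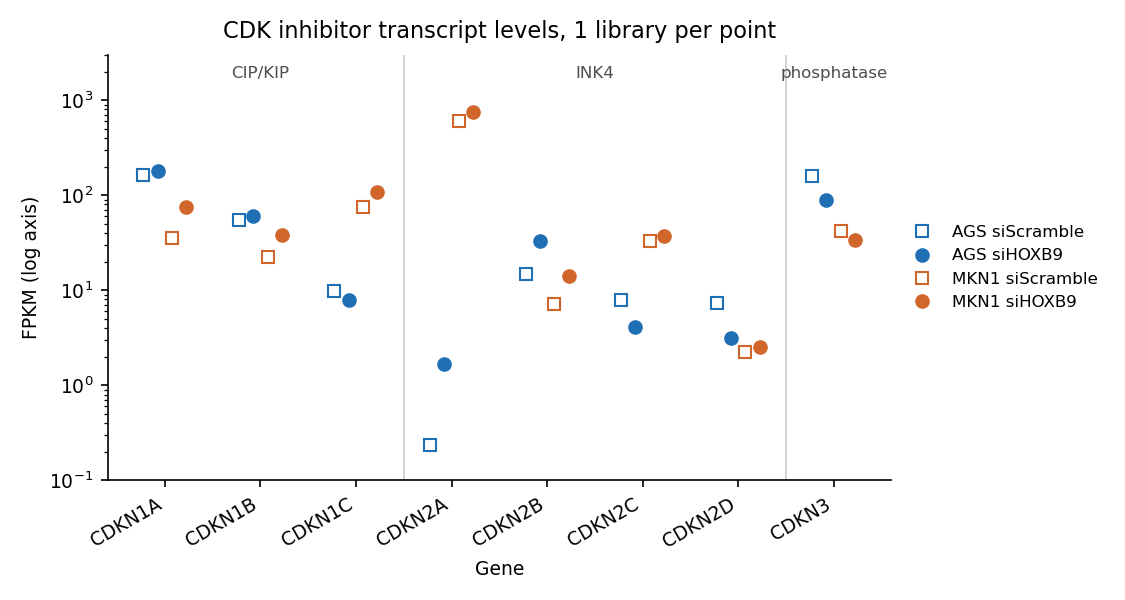
FPKM of the 8 genes (x axis) on a log axis, with 1 point per library, blue for AGS and orange for MKN1, open squares for siScramble and filled circles for siHOXB9. CDKN2A spans 0.237 to 755 FPKM, while CDKN1A and CDKN3 are highest in AGS.

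In both AGS libraries the order from high to low was CDKN1A, CDKN3, CDKN1B, CDKN2B, CDKN1C, CDKN2C, CDKN2D and CDKN2A. In MKN1 siScramble it was CDKN2A, CDKN1C, CDKN3, CDKN1A, CDKN2C, CDKN1B, CDKN2B and CDKN2D. With siHOXB9 in MKN1, CDKN3 stood in the sixth place in place of the third, behind CDKN1A, CDKN1B and CDKN2C. No library was repeated, so there is no spread to set beside the order, and close neighbours such as CDKN1A and CDKN3 in AGS siScramble (165 and 159 FPKM) are not separated.

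In limma (a linear model with line and siRNA as terms, moderated over 13758 genes), 6 of the 8 genes differed between the lines at an adjusted p of at most 0.05 and 2-fold or more. CDKN2A, CDKN1C and CDKN2C were higher in MKN1, with differences on the log2(FPKM + 1) scale of 8.54 (SE 0.229, adjusted p 6.6e-07), 3.22 (SE 0.230, adjusted p 2.81e-05) and 2.40 (SE 0.267, adjusted p 0.000256). CDKN1A, CDKN3 and CDKN2B were lower in MKN1, with differences of -1.71 (SE 0.239, adjusted p 0.000773), -1.63 (SE 0.194, adjusted p 0.000359) and -1.07 (SE 0.195, adjusted p 0.00269). Over all genes tested, 16.2% were higher in MKN1 and 20.9% lower by the same rule, so such differences between the lines were common. CDKN1B was lower by less than 2-fold (-0.95, SE 0.207, adjusted p 0.00616), and CDKN2D missed the threshold (-0.81, SE 0.299, adjusted p 0.0509). The 2 libraries of a line differ in siRNA and are not repeats, and the fit has 1 residual degree of freedom. Without the filter on low values CDKN1A, CDKN2B, CDKN2C and CDKN3 missed the threshold, with adjusted p from 0.0545 to 0.0875 in limma, and CDKN2B was under 2-fold after centring (-0.88) or quantile normalization (-0.92).

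The promoters of 4 members are shown, chosen after their values were seen: CDKN1A and CDKN2B were each called higher with siHOXB9 in a line, and CDKN2D and CDKN3 were lower in AGS, as described next. The sequences come from the 250 bases before the RefSeq start (GRCh38.p14), 5′ to 3′ on the gene's strand. Each is the longest stretch there that lies in no annotated exon of a protein-coding gene. Exons of noncoding genes were not left out. Capitals mark motif letters. They are chr6:36678464-36678657 on the forward strand for CDKN1A, chr9:22009364-22009555 on the reverse strand for CDKN2B, chr19:10569060-10569229 on the reverse strand for CDKN2D and chr14:54396757-54396848 on the forward strand for CDKN3.
CDKN1A: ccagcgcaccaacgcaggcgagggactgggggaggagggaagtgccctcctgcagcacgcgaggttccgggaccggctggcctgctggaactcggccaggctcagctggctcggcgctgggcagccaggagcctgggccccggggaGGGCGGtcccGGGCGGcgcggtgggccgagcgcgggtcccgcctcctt
CDKN2B: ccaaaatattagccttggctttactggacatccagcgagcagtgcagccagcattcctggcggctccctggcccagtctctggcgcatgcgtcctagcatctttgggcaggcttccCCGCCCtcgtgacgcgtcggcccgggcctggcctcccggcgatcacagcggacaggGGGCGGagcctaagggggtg
CDKN2D: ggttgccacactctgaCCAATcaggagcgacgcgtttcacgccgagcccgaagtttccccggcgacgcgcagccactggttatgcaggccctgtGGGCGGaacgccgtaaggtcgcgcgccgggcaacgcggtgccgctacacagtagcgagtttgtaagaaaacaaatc
CDKN3: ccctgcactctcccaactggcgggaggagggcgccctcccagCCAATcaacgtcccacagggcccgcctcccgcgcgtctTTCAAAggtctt

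The CDKN1A, CDKN2B and CDKN2D stretches held GGGCGG, the GC box of SP1-type factors, or its reverse complement CCGCCC, with 2, 2 and 1 matches. The CDKN2D and CDKN3 stretches held CCAAT, the NF-Y box. CDKN3 also held TTCAAA, the reverse complement of TTTGAA, a letter match to the cell cycle element known as CHR, at bases -170 to -165 from the RefSeq start. Among all 35116 RefSeq windows of 250 bases, 42.6% held GGGCGG, 32.01% CCAAT and 13.3% TTTGAA on either strand. Of the 10 windows of members (7 genes, with 3 starts for CDKN2C and 2 for CDKN2A), 7 held GGGCGG, 4 held CCAAT and 1 held TTTGAA. The E box word CACGTG was found in 2 windows of CDKN2C (6.34% of all windows). TTCGAA, the E2F-type words TTTCGCGC and TTTGGCGC, the posterior HOX-type words TTTATGA and TTTACGA and the TATA word TATAAA were found in none of the 10, against 1.19%, 0.439%, 0.550%, 3.23%, 0.444% and 10.7% of all windows. In the printed stretches no match overlaps another. These are letter matches in short windows and no measure of binding.

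In AGS, CDKN2B was higher with siHOXB9, and CDKN2D, CDKN3 and CDKN2C were lower, 2.31-, 1.80- and 1.97-fold in FPKM, while CDKN1A and CDKN1B differed little. Changes are log2((siHOXB9 FPKM + 1)/(siScramble FPKM + 1)), and a gene was called at a size of at least 1, among genes with 1 FPKM or more in either library of the line. No test exists for a single pair of libraries, so these values describe the libraries. CDKN2B, at 14.9 FPKM against 33.0, had a change of 1.09, which is a 2.21-fold difference in FPKM with a 95% counting interval of 1.76 to 2.77. CDKN2A was also called, with a change of 1.11. It met the minimum of 1 FPKM only in the siHOXB9 library (0.237 against 1.67 FPKM), so it could only be called higher. Its estimated 1 to 3 fragments against 7 to 21 give a 7.07-fold difference with an interval of 0.939 to 329 at the shorter transcript length and 2.18 to 38.3 at the longer. Of the 8 genes, 2 were called higher and none lower, beside 1.68% of 13252 genes called higher and 2.21% called lower. Their median change was -0.09, against -0.06 over all genes.

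The lower members in AGS were CDKN2D, at 7.31 FPKM against 3.17 (change -0.996, just under the size rule), CDKN3, at 159 against 88.3 (-0.84), and CDKN2C, at 7.999 against 4.07 (-0.83). Their ratios in FPKM were 0.433 (counting interval 0.281 to 0.662), 0.556 (0.489 to 0.631) and 0.509 (0.356 to 0.727). The changes of these 3 genes lay at percentiles 2.25, 3.68 and 3.83 of all genes, so each was among the lowest in the library pair. CDKN2D was called lower with a pseudocount of 0.1 FPKM, where its change was -1.18. CDKN1C was at 9.77 FPKM against 7.85 (-0.28), with a counting interval of the ratio, 0.549 to 1.18, that includes 1. CDKN1A (0.11) and CDKN1B (0.12) were within 10% of their controls, with ratios of 1.08 (0.997 to 1.17) and 1.09 (0.959 to 1.24). Counting intervals cover counting error only and not the spread between cultures.

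In MKN1 all 3 CIP/KIP genes and CDKN2B were higher with siHOXB9. There 7 of the 8 members were above control, beside 63.1% of all genes, so higher values were common in this library pair. CDKN1A, at 35.7 FPKM against 74.9, had a change of 1.05 and a ratio of 2.097 (counting interval 1.78 to 2.48), and was the 1 member called. CDKN2B followed with 7.21 FPKM against 14.0 (change 0.87, ratio 1.94, interval 1.36 to 2.81). CDKN1B was at 22.5 against 38.4 (change 0.74, ratio 1.70, interval 1.39 to 2.08), and CDKN1C at 75.4 against 107 (change 0.50, ratio 1.42, interval 1.26 to 1.61). Over all genes 2.1% of 13122 were called higher and 1.94% lower in MKN1. CDKN1A lay just above the size rule, and it was not called after giving the libraries equal totals (0.97), centring changes on their median (0.95) or quantile normalization (0.91).

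The remaining members differed less in MKN1. CDKN2A was at 607 FPKM against 755 (change 0.31, ratio 1.24, interval 1.18 to 1.31). CDKN2C, at 32.6 against 36.8 (0.17), and CDKN2D, at 2.22 against 2.52 (0.13), had counting intervals that include 1, of 0.975 to 1.31 and 0.594 to 2.17. CDKN3 was the 1 member below its control, at 42.0 FPKM against 33.8 (-0.30, ratio 0.806, interval 0.633 to 1.02). The median of the 8 changes was 0.41, and over all genes it was 0.09.

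**Figure D2:**
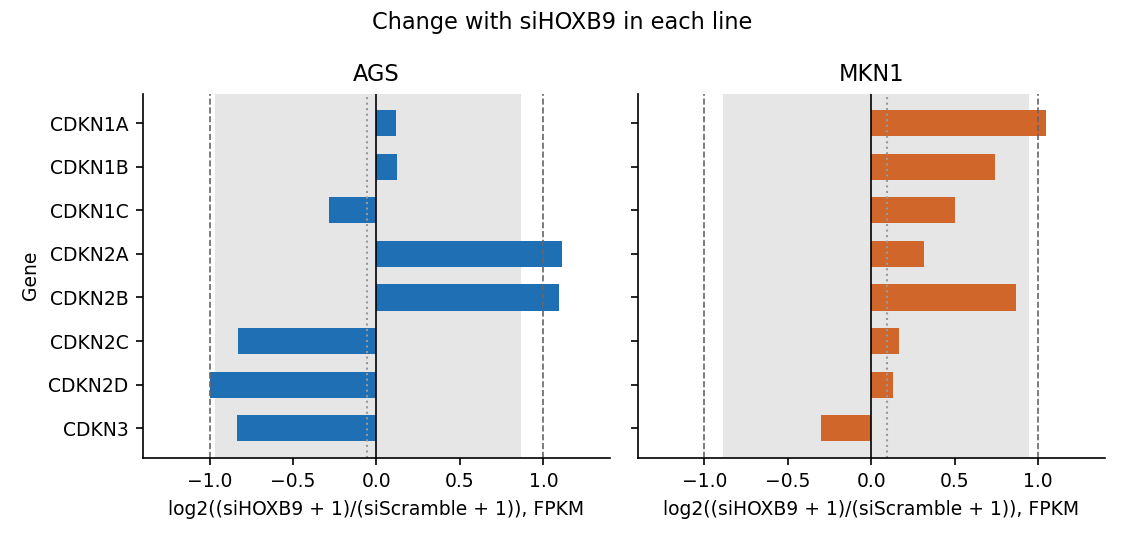
Change with siHOXB9 for each gene (y axis) in AGS (left) and MKN1 (right), as the log2 ratio with 1 FPKM added. The grey band holds the central 95% of all genes, the dotted line is their median, and the dashed lines are the 2-fold size rule; CDKN2A and CDKN2B pass it in AGS and CDKN1A in MKN1.

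Across both lines, 5 of the 8 genes had changes of the same sign, with CDKN1A, CDKN1B, CDKN2A and CDKN2B higher and CDKN3 lower in each. Over the 11547 genes measured in both lines the share with the same sign was 53.1%, so the members' count lies near that of all genes. CDKN2B had changes of 1.09 in AGS and 0.87 in MKN1. Its limma estimate was 0.98 (SE 0.195, adjusted p 0.321, unadjusted p 0.0014). The estimates for CDKN2A (0.71, SE 0.229), CDKN1A (0.58, SE 0.239) and CDKN3 (-0.57, SE 0.194) had adjusted p of 0.616, 0.696 and 0.629. With a pseudocount of 0.1 FPKM the limma estimate of CDKN2A was 1.36 and that of CDKN2B 1.04, so their order depends on the pseudocount. None of the 8 genes passed the threshold in limma, beside 0.00727% of all genes, which is 1 of 13758, and 4 members had an unadjusted p under 0.05 with 980 of all genes. Over the 10 settings tried the adjusted p of CDKN2B in limma ranged from 0.221 to 1, with the upper end from the fit without the line term. CDKN1C, CDKN2C and CDKN2D were lower in AGS and higher in MKN1. A difference of response between the lines could not be tested, since the 4 libraries leave no residual for an interaction term.

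Of the kinases that these inhibitors bind, CDK2 was called lower with siHOXB9 in AGS and CDK6 in MKN1, CDK4 was called in neither line, and none passed limma. In AGS, CDK2, the main CIP/KIP target, was at 63.7 FPKM against 27.5 (change -1.18), CDK4 at 229 against 167 (-0.45) and CDK6 at 26.7 against 15.3 (-0.77). In MKN1, CDK2 was at 162 against 145 (-0.16) and CDK4 at 337 against 351 (0.06), while CDK6 was at 24.9 against 11.6 (-1.04). Summed CIP/KIP FPKM per CDK2 FPKM was thus 3.61 and 8.96 in AGS, siScramble first, and 0.825 and 1.52 in MKN1. Summed INK4 FPKM per CDK4 and CDK6 FPKM was 0.119 and 0.230 in AGS, and 1.80 and 2.23 in MKN1. Without CDKN2A these INK4 ratios were 0.118 and 0.220 in AGS and 0.116 and 0.147 in MKN1, so with siScramble the lines were close in this ratio once CDKN2A was left out. Both ratios were higher with siHOXB9 in each line, with no repeat library to set an error. They compare transcripts and not proteins.

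**Figure D3:**
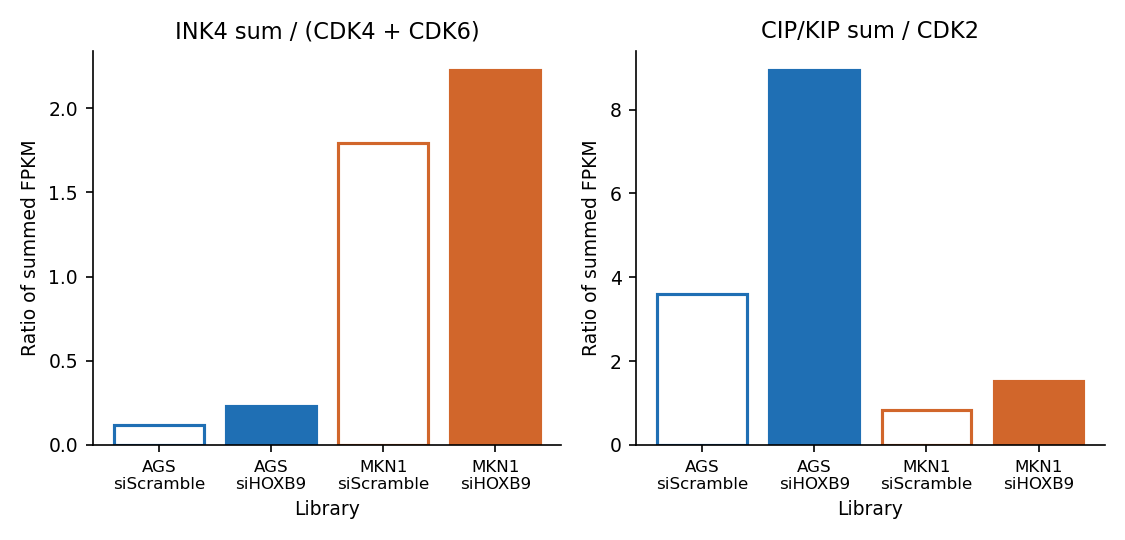
Ratio of summed FPKM in each library (x axis), INK4 genes over CDK4 plus CDK6 (left) and CIP/KIP genes over CDK2 (right), open bars for siScramble and filled bars for siHOXB9. The left ratio is 0.119 and 0.230 in AGS against 1.80 and 2.23 in MKN1, and the right ratio 3.61 and 8.96 against 0.825 and 1.52.

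Of 14 measured CDKs and cyclins, 12 were lower in AGS, 2 of them called (CDK2 and CCNA2), and the median change was -0.61. Over all genes in AGS 57.0% were lower and 2.21% called lower. CCNA2, the S phase cyclin A2, was at 36.2 FPKM against 12.5 in AGS (-1.47) and 37.6 against 10.8 in MKN1 (-1.70), and the mitotic cyclin CCNB2 was at -0.94 in AGS. In MKN1, 10 of 14 were lower, CCNA2 and CDK6 were called, and cyclin E1 (CCNE1) was at 10.8 FPKM against 6.21 (-0.71). The median there was -0.21, and over all genes in MKN1 36.9% were lower and 1.94% called lower. Cyclin D1 (CCND1), which INK4 proteins displace, was at 241 against 283 FPKM in AGS (0.23) and 195 against 310 in MKN1 (0.66). No gene of this list or of the lists below passed the limma threshold for siHOXB9, and the adjusted p of CCNA2 was 0.088.

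Among 12 pocket protein and E2F genes none was called in either line, with medians of -0.10 in AGS and 0.24 in MKN1. Over all genes 1.68% were called higher and 2.21% lower in AGS, and 2.1% and 1.94% in MKN1. With such small shares, no call among 12 genes is no trait of this list. RB1, the protein on which INK4 action depends, was at 15.2, 17.0, 7.71 and 10.7 FPKM in the library order used for CDKN2A. E2F1, an activator of S phase genes, was at 22.9 against 14.1 in AGS (-0.66), with E2F7 at -0.80 and E2F8 at -0.48. In MKN1, E2F6, a repressor, was at 9.52 against 16.4 (0.72), with E2F8 at -0.60 and E2F7 at 0.49. Among 15 parts of ubiquitin ligases that degrade CIP/KIP proteins, beside the same shares of all genes, 1 was called lower in AGS and none in MKN1 (medians -0.11 and 0.05). That gene was CDC20 (208 FPKM against 85.8, -1.27), an activator of the anaphase-promoting complex. DTL, which together with PCNA marks p21 for destruction, was at -0.84 and PCNA at -0.73 in AGS. In MKN1 the largest changes were those of RCHY1 (0.70), RNF123 (0.57) and CDC20 (-0.30). SKP2 was at 25.1 and 24.0 FPKM in AGS and 99.3 and 117 in MKN1, and was higher in MKN1 in limma (2.09, SE 0.178, adjusted p 6.75e-05).

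Of the regulators known to act on these promoters, 28 were measured in AGS and 30 in MKN1, and none was called (medians -0.19 and 0.10). The shares called over all genes were 1.68% higher and 2.21% lower in AGS, and 2.1% and 1.94% in MKN1. MDM2, the ligase that ARF restrains, was at 44.3 against 36.0 in AGS (-0.29) and 9.53 against 11.9 in MKN1 (0.29). The largest changes in AGS were those of MYBL2 (-0.71) and LIN9 (-0.68), which act in the complex that drives mitotic genes, and of SMAD4 (-0.66), the shared partner of TGF-beta signalling. In MKN1 they were those of CBX7, a Polycomb protein that represses the CDKN2A locus (0.477 against 1.32 FPKM, 0.65), KDM6B, a demethylase that opposes Polycomb (6.60 against 10.9, 0.64), and ID2 (-0.59). BMI1, another Polycomb repressor of CDKN2A, was lower in MKN1 than in AGS in limma (-2.05, SE 0.186, adjusted p 9.3e-05), with 57.9 and 64.0 FPKM in AGS and 11.7 and 16.5 in MKN1. TBX3, a T-box repressor of ARF, was at 0.0195 and 0.0405 FPKM in AGS and 18.05 and 22.6 in MKN1, on the same side as CDKN2A. CBX7 and KDM6B were lower in MKN1 by less than 2-fold (-0.85 and -0.99, adjusted p 0.0372 and 0.00539 in limma). Of 30 regulators tested, 5 were higher in MKN1 and 7 lower by the rule used for the members, beside 16.2% and 20.9% of all genes. What part any of them had in the CDKN2A level was not tested.

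None of 13 other regulators of CDK activity was called (medians -0.17 in AGS and 0.13 in MKN1), beside the same small shares of all genes. In AGS the largest changes were those of CDC25C (-0.68) and CDC25B (-0.39), phosphatases that remove inhibitory phosphates from CDKs, and of PKMYT1 (-0.50), a kinase that places them. In MKN1 they were those of CDC25A, at 37.3 FPKM against 66.9 (0.83), the checkpoint clamp gene HUS1 (0.68) and CDC25B (0.60).

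Of 14 measured genes lying next to the members in AGS and 15 in MKN1 none was called, with medians of -0.15 and -0.01. Over all genes 1.68% were called higher and 2.21% lower in AGS, and 2.1% and 1.94% in MKN1. Values below are changes in AGS and then in MKN1. MTAP, beside CDKN2A and CDKN2B, was at 50.9, 51.1, 29.3 and 29.1 FPKM in the library order above (0.01 and -0.01). MTAP transcript was therefore present in AGS, where CDKN2A was near 0. Next to CDKN1A, SRSF3 had changes of -0.17 and 0.03, and CPNE5 was at 0.229 FPKM or less. At the CDKN1C locus, KCNQ1 was at 0.05 and 0.31, SLC22A18 at -0.11 and 0.28 and the imprinted gene PHLDA2 at -0.25 and 0.17, and KCNQ1OT1 was at 0.0149 FPKM or less. PHLDA2 was higher in MKN1 (2.44, SE 0.181, adjusted p 3.41e-05 in limma), as CDKN1C was, and SLC22A18 was lower (-1.43, SE 0.187, adjusted p 0.000566). Next to CDKN1B, DDX47 was at -0.19 and -0.01, while GPR19 (-0.81 and 0.26) and APOLD1 (-0.14 and -0.37) were at 1.13 FPKM or less. Near CDKN2C, FAF1 was at -0.23 and -0.19, and DMRTA2 was at 0.0310 FPKM or less in AGS and at 3.00 and 3.01 FPKM in MKN1. DMRTA2 was higher in MKN1 (1.98, SE 0.209, adjusted p 0.0002 in limma), as CDKN2C was. Near CDKN2D, AP1M2 was at 0.04 and 0.05, KRI1 at -0.14 and -0.13 and SLC44A2 at 0.12 and -0.34. Near CDKN3, CNIH1 was at -0.19 and 0.25, GMFB at -0.08 and -0.05 and CGRRF1 at -0.25 and -0.36. DMRTA1, near CDKN2B, was at 0.106 FPKM or less. Of 14 neighbouring genes tested in limma, 2 were higher in MKN1 than in AGS and 6 lower, by the rule used for the members. Over all genes these shares were 16.2% and 20.9%. The lower ones included CNIH1 (-1.27), GMFB (-2.23) and CGRRF1 (-1.10), near CDKN3, which was also lower. AP1M2 (-1.17) and SLC44A2 (-2.99), near CDKN2D, which itself missed the threshold, were lower as well. DDX47, near CDKN1B, and KRI1, near CDKN2D, were higher in MKN1, opposite to these members. Both were under 2-fold in limma (0.84 and 0.68, adjusted p 0.00436 and 0.014).

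Markers of dividing cells were lower in AGS alongside CDKN3, CDKN2C and CDKN2D. All 18 proliferation markers were lower there, 4 of them called, and the median change was -0.93, beside 57.0% of all genes lower and 2.21% called lower. BIRC5 (-1.36), PLK1 (-1.23) and AURKB (-1.11), which act in mitosis, had the largest changes. In MKN1, 10 of 18 were lower, beside 36.9% of all genes, and the median change was -0.05. TOP2A was at -0.74, UBE2C at -0.52 and MKI67 at -0.40. None of the 18 was called there, beside 2.1% of all genes called higher and 1.94% lower. Whether fewer dividing cells or less RNA per cell gave the lower values cannot be told apart in bulk RNA, and the part of proliferation in the CDKN3, CDKN2C and CDKN2D differences was not tested. Of genes known to change in senescence, 9 were measured in AGS and 11 in MKN1. Beside 2.21% of all genes, 2 of the 9 were called lower in AGS, MMP1 (185 FPKM against 49.2, -1.89) and the chromatin protein HMGB2 (169 against 79.9, -1.07), and the chemokine CXCL1 was at 4.53 against 8.97 (0.85). None was called in MKN1, where IGFBP3 (-0.63), CXCL2 (0.56) and CCL2 (-0.41) had the largest changes. The medians were -0.16 and 0.09.

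**Figure D4:**
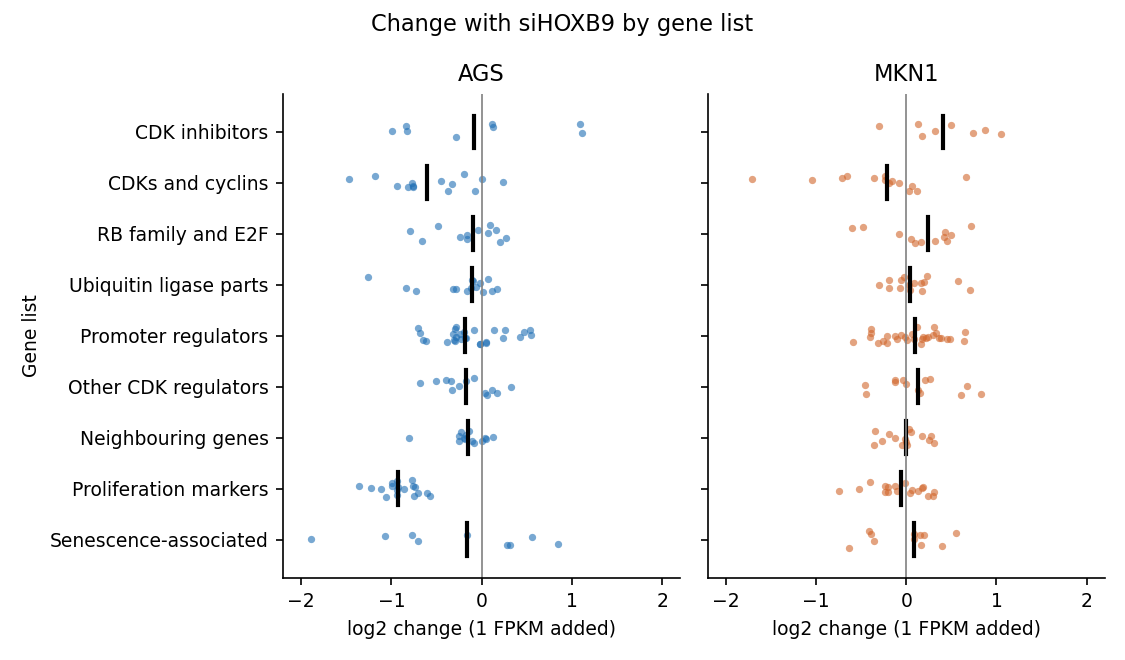
Change with siHOXB9 (x axis, log2 with 1 FPKM added) for the 8 CDK inhibitor genes and each gene list (y axis) in AGS (left) and MKN1 (right), with 1 point per measured gene and a black bar at the list median. Proliferation markers all lie below 0 in AGS (median -0.93) and lie around 0 in MKN1 (median -0.05).

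Likeness of profile was measured as the Euclidean distance between log2(FPKM + 1) values of the 4 libraries, each gene centred on its own mean, among 9616 protein-coding genes with 5 FPKM or more in a library. Nearest to CDKN1A were RNF31 (distance 0.0688), SPATA2L and MREG, and to CDKN1B TNFRSF21 (0.0441), PLD2 and PQLC2. Nearest to CDKN1C were NAV1 (0.118), KLHDC8B and PREX1, and to CDKN2C S100A3 (0.0497), SPDL1 and ST6GALNAC4. CDKN2A had no close match, with BASP1 at 0.485, KRT7 at 0.660 and EEF1A2 at 0.846. Among the genes nearest to CDKN2B were HIP1R (0.306) and IFT74 (0.309). CDKN2D was nearest to AMN1 (0.114), SLC1A5 and PRTFDC1, and CDKN3 to BRSK1 (0.0715), PQLC3 and CCK. With 4 libraries many genes can lie close by the line difference alone, and RNF31, MREG and PRTFDC1 share exon sequence with another annotated gene. In AGS, NAV1, KLHDC8B, PREX1, S100A3, BASP1 and EEF1A2 stayed under 1 FPKM, as CCK did in MKN1, so their distances depend on the pseudocount.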

How the data were processed

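RNA of 2 cell lines under 2 siRNAs was measured in 4 libraries. FPKM values were computed by the authors and deposited as 1 table with a column per library. The submitters' processing notes name GRCh38 and hg38. Aligner, counting tool and annotation: not given in the sources used here. Library preparation, per the labels' protocols, describes no step that keeps strand. Title spelling "MNK1" for the MKN1 control was read as MKN1, as its source name and cell line tag give.

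Symbols were joined to GENCODE release 29 for positions, transcripts and shared exons, and to RefSeq promoter windows (GRCh38.p14), where 7 of 8 members matched and CDKN1C did not. Depth was found as the fragment number at which low FPKM values of single-transcript genes, with lengths shortened by 260 bases, are whole numbers of fragments (within 0.05 for 52.6% to 55.3% of values). Fragment numbers per gene are estimates from the shortest coding transcript, taken as at least 600 bases, and the longest. Intervals are exact binomial (Clopper-Pearson) at 95%, on the shortest unless stated.

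Within a line, changes were log2 ratios with a pseudocount of 1 FPKM, a minimum of 1 FPKM in either library and a size rule of 2-fold. Over both lines limma 3.58.1 (R 4.3.3) was fitted to log2(FPKM + 1) with an intensity trend, two-sided, with Benjamini-Hochberg adjustment over 13758 genes at 0.05. The limma fit was tested on simulated data for the siHOXB9 term. Members and the 8 gene lists were chosen with earlier results of these data known. Named were all members, the 3 genes of each list with the largest change in each line, all neighbouring genes, and the 3 nearest profiles (1 of those of CDKN2B is not reported here); CDK4, CCND1, RB1, SKP2, MDM2, BMI1 and TBX3 lie outside this rule and were named, for their role, after their values were seen. Of list names, RBL1, CKS1B, CXCL8, CDKN2A-DT, CDKN2A-AS1 and PANDAR did not match exactly 1 row and were not analysed here. The same holds for the endothelial marker PECAM1.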

Additional observations from a re-analysis of the deposited data

Results flagged for a closer look

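CDKN1C, CDKN2C and CDKN2D had opposite signs in the 2 lines. The change in log2(FPKM + 1) with siHOXB9 was -0.28 in AGS and 0.50 in MKN1 for CDKN1C, -0.83 and 0.17 for CDKN2C, and -0.996 and 0.13 for CDKN2D. Each value stands on 1 library per group, and the difference between the lines was not tested. The signs were the same in all 8 settings of each line. Dropping the filter, the filter of 5 FPKM and the 1.5-fold rule leave a change as it is, so they could not move a sign. The counting interval of the ratio included 1 for CDKN1C in AGS and for CDKN2C and CDKN2D in MKN1.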

How the results depend on the processing

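No member changed sign under any alternative, in either line, over both lines or between the lines. The filters, the 1.5-fold rule, limma without its trend or with the robust option, and the fit without the line term leave estimates unchanged. Those alternatives could not move a sign. Of 246 values of single members under an alternative, 230 kept their side of the threshold, 10 lost it and 6 gained it. In AGS 1 member was called lower with a pseudocount of 0.1 FPKM and 3 with a size rule of 1.5-fold, in place of none, and 1 was called higher with a filter of 5 FPKM, which leaves out CDKN2A, in place of 2. In MKN1 the count called higher was 0 with rescaled totals, centring or quantile normalization and 3 with the rule of 1.5-fold, in place of 1. Between the lines, the count lower in MKN1 was 0 with no filter, in place of 3. The 0 members past the limma threshold for siHOXB9 stayed at 0 in all settings. The fit without the line term carries the line difference in its error and called 0 of all 13758 genes. Over all genes, limma called none higher and 1 lower for siHOXB9, but 4 and 4 with a filter of 5 FPKM and 3 and 4 with the robust option. Between the lines it called 2229 higher and 2880 lower in MKN1, but 1271 and 1479 with no filter. Within AGS the size rule gave 223 upward and 293 downward calls, against 452 and 585 with a pseudocount of 0.1 FPKM, 101 and 155 with a filter of 5 FPKM and 747 and 1109 at 1.5-fold. Within MKN1 it gave 276 and 255, against 570 and 455, 128 and 129, and 1045 and 707 in the same order. Of all genes called, 43.2% of AGS calls were upward and 54.2% with rescaled totals; in MKN1 52.0% were, and 39.7% after centring. The line term of the limma fit pairs the 2 libraries of a line, and the fit without it is the unpaired alternative. The labels carry no replicate numbers for any other block. Leaving out a library was not run, since it leaves no control or no residual. Depth limits CDKN2A in AGS most.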
